A study of Mus musculus with 6 samples.

Results

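Caveolae and continuous capillary genes were examined as a set of 10: Cav1, Cav2, Cavin1, Cavin2, Cavin3, Ehd2, Pacsin2, Plvap, Emcn and Esm1. The genes were picked by symbol for their place in these structures, and all 10 were measured, each by 1 feature, among 23279 genes in all. Expression was measured on 6 arrays of whole fetal liver taken from mouse embryos at embryonic day 11.5. Stab2-Cre, a transgene that places Cre under the promoter of a scavenger receptor gene of sinusoidal endothelium, was bred to a line with floxed Gata4 (Gata4tm1.1Sad). Parents carrying Stab2-Cretg/wt;Gata4fl/wt were mated with Gata4fl/fl animals, so every embryo of the cross has at least 1 floxed allele. The 3 livers labelled knockout are given as Stab2-Cre;Gata4fl/fl, and the 3 control livers have titles that name them Stab2Cre;Gata4 heterozygous. Replicates are titled biological; no source used here tells the embryos per array, the litters or the sex, and if livers were not separate, the p-values measure only the spread between these samples.

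Caveolae are flask-shaped pits of the plasma membrane, abundant in the endothelium of continuous capillaries, in fat, in muscle and in mesenchymal cells. Caveolins are membrane-inserted proteins that shape the pit together with cavins, which coat it from the cytoplasm, while EHD2 sits at its neck and pacsin 2 helps to bend the membrane. Continuous capillaries have an unbroken lining, whereas liver sinusoids mature into an open, fenestrated lining rich in scavenger receptors. PLVAP forms the diaphragms that span caveolae and some fenestrae, endomucin is a sialomucin of the capillary and venous surface, and ESM1 is a secreted proteoglycan of endothelial tip cells.

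The bases before annotated starts of the 4 genes whose level differed between the groups are shown. Whether these bases regulate the genes in fetal liver was not tested. They are the 250 bases upstream of the start, read 5′ to 3′ from the RefSeq promoter table of GRCm38.p6, all on the plus strand: Cav1 at chr6:17306085-17306334, Emcn at chr3:137340828-137341077, Esm1 at chr13:113209409-113209658 and Cavin2 at chr1:51288876-51289125. Capitals mark AGGAA, a core bound by ETS factors, and ACAAT, a core bound by SOX factors, with their reverse complements TTCCT and ATTGT. In Cavin2 a match of each kind overlaps in the first capital run.
Cav1: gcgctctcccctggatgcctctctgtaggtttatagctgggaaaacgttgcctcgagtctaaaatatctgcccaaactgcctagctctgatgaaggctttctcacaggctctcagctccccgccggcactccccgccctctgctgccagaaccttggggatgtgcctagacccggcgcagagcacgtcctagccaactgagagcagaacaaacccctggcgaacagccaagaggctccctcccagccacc
Emcn: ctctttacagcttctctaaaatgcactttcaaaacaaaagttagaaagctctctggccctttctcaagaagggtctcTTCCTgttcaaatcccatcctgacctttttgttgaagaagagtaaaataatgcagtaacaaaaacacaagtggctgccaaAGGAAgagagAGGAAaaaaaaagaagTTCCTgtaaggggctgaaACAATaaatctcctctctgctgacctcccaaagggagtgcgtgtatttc
Esm1: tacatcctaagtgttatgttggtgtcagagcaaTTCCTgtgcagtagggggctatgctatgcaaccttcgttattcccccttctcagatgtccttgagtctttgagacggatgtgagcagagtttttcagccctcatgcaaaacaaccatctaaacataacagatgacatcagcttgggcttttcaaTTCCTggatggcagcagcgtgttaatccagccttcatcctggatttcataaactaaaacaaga
Cavin2: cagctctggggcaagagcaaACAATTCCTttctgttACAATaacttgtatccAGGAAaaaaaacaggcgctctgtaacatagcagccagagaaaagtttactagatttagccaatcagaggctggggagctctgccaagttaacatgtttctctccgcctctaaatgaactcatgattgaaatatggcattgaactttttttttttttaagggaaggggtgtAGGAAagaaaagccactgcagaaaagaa
The Cav1 stretch has no capital. Emcn holds 4 matches of AGGAA and 1 of ACAAT, Esm1 holds 2 of AGGAA, and Cavin2 holds 3 and 2. Of 32851 upstream windows of this length, 60.3% hold AGGAA and 27.7% hold ACAAT on either strand. The GATA core GATAA, or TTATC on the other strand, is in none of these 4 stretches and in 22.6% of all windows. Cav1 has another annotated start, whose upstream window holds 1 GATAA and 2 AGGAA. A match describes letters only, and the arrays measured no binding.

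In every array the deposited log2 values had a median of 5.43 and ran from 2.55 to 13.9. Hepatoblast genes that define fetal liver were near the top of this scale, with Alb at 13.46 and Afp at 13.35 in controls. Gata4, the targeted gene, read 9.90, 9.96 and 9.87 in control replicates 1, 2 and 3 and 10.38, 10.26 and 10.64 in the livers labelled knockout. It was therefore higher and not lower in the latter (log2 difference 0.51, SE 0.12, adjusted p = 0.0409 by limma), a call kept only without labelled knockout replicate 2 when 1 array was left out (adjusted p up to 0.144). Dissected liver also holds cells outside the reach of the Cre, and where the probes lie is stated in no source used here, so this reading does not check the labels, and each direction below rests on the labels. Xist, the RNA of the inactive X chromosome, read 10.71, 10.34 and 10.31 in the livers labelled knockout. Control replicate 2 was at 10.19, whereas control replicate 1 was at 3.58 and control replicate 3 at 3.96. Embryo sex was thus unbalanced between the groups, and values against control replicate 2 alone are given where the genes are described. That replicate also had the highest heart muscle markers of the 6 arrays (median shift from the control mean 1.32). In values against it alone, sex and heart tissue cannot be told apart.

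Cav1, Emcn and Esm1 rose in the livers labelled knockout and Cavin2 fell, while Cav2, Cavin1, Cavin3, Ehd2, Pacsin2 and Plvap did not pass the test. The test was limma's moderated fit over all genes with a Benjamini-Hochberg adjusted p under 0.05. By this rule 6.36% of all genes passed, 3.59% as higher and 2.77% as lower, against 3 and 1 of the 10 genes here. The 10 were chosen with earlier results of these data known, so these counts are a description and not independent evidence. The 3 livers labelled knockout all lay above the 3 controls for Cav1, Cav2, Emcn and Esm1, which was so for 13.0% of all genes, and all lay below them for Cavin2, which was so for 14.3% (27.3% in either direction). The median log2 fold change of the 10 genes was 0.17, beside -0.01 over all genes tested. In these bulk samples fewer cells of a type and less RNA per cell cannot be told apart.

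**Figure D1:**
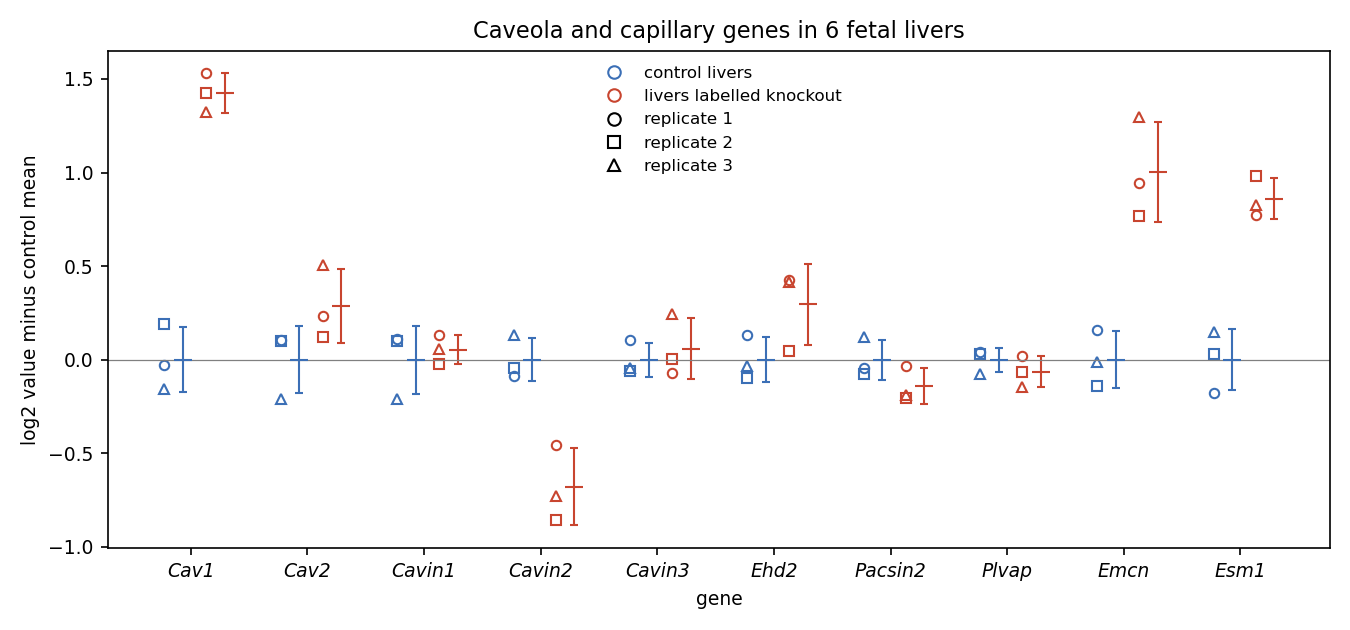
Log2 value of each gene minus its control mean (vertical axis) for the 10 genes (horizontal axis); open symbols are single arrays by replicate number, blue for control livers and red for livers labelled knockout, and the bars beside them are mean ± SD (n = 3). Cav1, Emcn and Esm1 stand clear above the controls and Cavin2 clear below, while the groups of Plvap and Cavin1 overlap.

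Cav1, the caveolin that caveolae of non-muscle cells require, read 6.94, 7.15 and 6.81 in control replicates 1, 2 and 3 and 8.50, 8.39 and 8.29 in the livers labelled knockout. The groups lay far apart, with 1.13 log2 units between the highest control and the lowest liver labelled knockout. Cav1 rose 2.69-fold (log2 fold change 1.43, SE 0.12, limma adjusted p = 0.00591), the 24th largest rise among all genes. The call held in all 6 fits that left out 1 array, with adjusted p-values from 0.00887 to 0.0436. Against control replicate 2 alone the difference was 1.24.

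Cav2, which forms hetero-oligomers with caveolin 1 and depends on it to reach the cell surface, read 6.41, 6.40 and 6.09 in control livers and 6.54, 6.42 and 6.80 in livers labelled knockout. The groups were only just apart, by 0.01 log2 units. Its log2 fold change of 0.29 (SE 0.14, adjusted p = 0.263) did not pass (0.19 against control replicate 2 alone), and the 95% interval ran from -0.03 to 0.60, below that of Cav1, which ran from 1.16 to 1.69. The difference between the changes of the 2 caveolins was not tested.

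Cav2 and Cav1 are neighbours on chromosome 6, in the order Tfec, Tes, Cav2, Cav1, Met, Capza2 among protein-coding genes of GRCm38.p6. On the side of Cav2, the LIM domain gene Tes differed by 0.47 (adjusted p = 0.352), and Tfec, a transcription factor of sinusoidal endothelium and macrophages, fell by 1.55 (SE 0.17, adjusted p = 0.00821). On the side of Cav1, the HGF receptor gene Met differed by 0.19 (adjusted p = 0.667) and the actin-capping gene Capza2 by 0.02 (adjusted p = 0.969). Of these 6 neighbours Cav1 was the only gene that rose past the threshold.

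Of the 3 cavins, Cavin2 fell, while Cavin1 and Cavin3 did not pass; the difference between them was not tested. Cavin1, the coat protein without which caveolae do not form, read 7.97, 7.95 and 7.64 in control livers and 7.98, 7.83 and 7.91 in livers labelled knockout. The groups overlapped, and the log2 fold change of 0.05 (95% interval from -0.21 to 0.32, adjusted p = 0.853) did not pass. Its sign turned, to -0.05, without control replicate 3 and, to -0.04, against control replicate 2 alone. Cavin3, which recruits signalling proteins and links caveolae to the cytoskeleton, read 8.13, 7.96 and 7.98 in control livers and 7.95, 8.03 and 8.27 in livers labelled knockout. Here too the groups overlapped (log2 fold change 0.06, 95% interval from -0.20 to 0.32, adjusted p = 0.830), and the sign turned to -0.03 without labelled knockout replicate 3. Against control replicate 2 alone the difference was 0.12.

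Cavin2, a phosphatidylserine-binding cavin of endothelium that is also abundant in platelets, read 7.78, 7.82 and 7.995 in control livers and 7.41, 7.01 and 7.14 in livers labelled knockout. All 3 livers labelled knockout were below every control. Cavin2 fell by 0.68 on the log2 scale (SE 0.13, limma adjusted p = 0.0264), or 1.60-fold. The call was the least stable of the 4: it did not survive leaving out labelled knockout replicate 3 (adjusted p = 0.0849) or control replicate 1 (0.0594), 2 (0.0717) or 3 (0.104), with log2 fold changes of -0.79 to -0.59 over the 6 fits. Against control replicate 2 alone it was -0.64.

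Of 10 megakaryocyte markers measured, a list added after the values of Cavin2 were seen, 3 fell (Gp5, Gp6 and Treml1) and 7 did not pass, with a median log2 fold change of -0.81. Over all genes 2.77% passed as lower. Without 1 array, Gp5 and Gp6 passed in 1 of 6 fits and Treml1 in 2. Clec1b differed by 0.03. The list's median shift from the control mean was -0.29, -0.93 and -1.23 in labelled knockout replicates 1, 2 and 3. In control replicates 1, 2 and 3 it was 0.05, -0.14 and 0.10. The part of these cells in the Cavin2 value was not tested.

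Ehd2, an ATPase that stabilises caveolae at the membrane, read 7.97, 7.74 and 7.80 in control livers and 8.26, 7.88 and 8.25 in livers labelled knockout. Labelled knockout replicate 2 lay among the controls, and the log2 fold change of 0.29 did not pass (SE 0.13, adjusted p = 0.226; 0.39 against control replicate 2 alone). Pacsin2, a membrane-bending protein of caveolae and endosomes, read 10.22, 10.19 and 10.39 in control livers and 10.23, 10.06 and 10.08 in livers labelled knockout. Its groups overlapped and its log2 fold change was -0.14 (95% interval from -0.37 to 0.09, adjusted p = 0.480; -0.07 against control replicate 2 alone).

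Among 12 relatives and partners of these proteins, 3 fell and 9 did not pass, with a median log2 fold change of -0.16. Over all genes 2.77% passed as lower. The EHD family members Ehd3, which is abundant in liver sinusoidal endothelium, and Ehd4 fell, as did the flotillin Flot1, a scaffold of membrane microdomains distinct from caveolae. Ehd3 read 10.54, 10.17 and 10.54 in control livers and 9.79, 9.19 and 9.002 in livers labelled knockout. It fell 2.13-fold (log2 fold change -1.09, SE 0.20, limma adjusted p = 0.0272). Ehd4 differed by -0.72 (SE 0.13, adjusted p = 0.0253) and Flot1 by -0.61 (SE 0.13, adjusted p = 0.0401), with no overlap between groups. These 3 calls held without labelled knockout replicate 1 and in none of the other 5 such fits, where the highest adjusted p was 0.107 for Ehd3, 0.0983 for Ehd4 and 0.138 for Flot1.

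The dynamin Dnm2, which pinches off membrane pits, differed by -0.23 (adjusted p = 0.210), Ehd1 by -0.22 (adjusted p = 0.231), and Nostrin, a trafficking partner of endothelial nitric oxide synthase, by -0.26 (adjusted p = 0.433). Nos3, that synthase, which caveolin 1 binds, differed by -0.10 (adjusted p = 0.721). The muscle members Cav3 (3.63) and Cavin4 (3.70) had control log2 values near the low end of the scale and did not pass (adjusted p = 0.643 and 0.515). None of the 12 rose past the threshold, and at an unadjusted p under 0.05 there were 4 of 12 in either direction, against 22.5% of all genes.

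**Figure D2:**
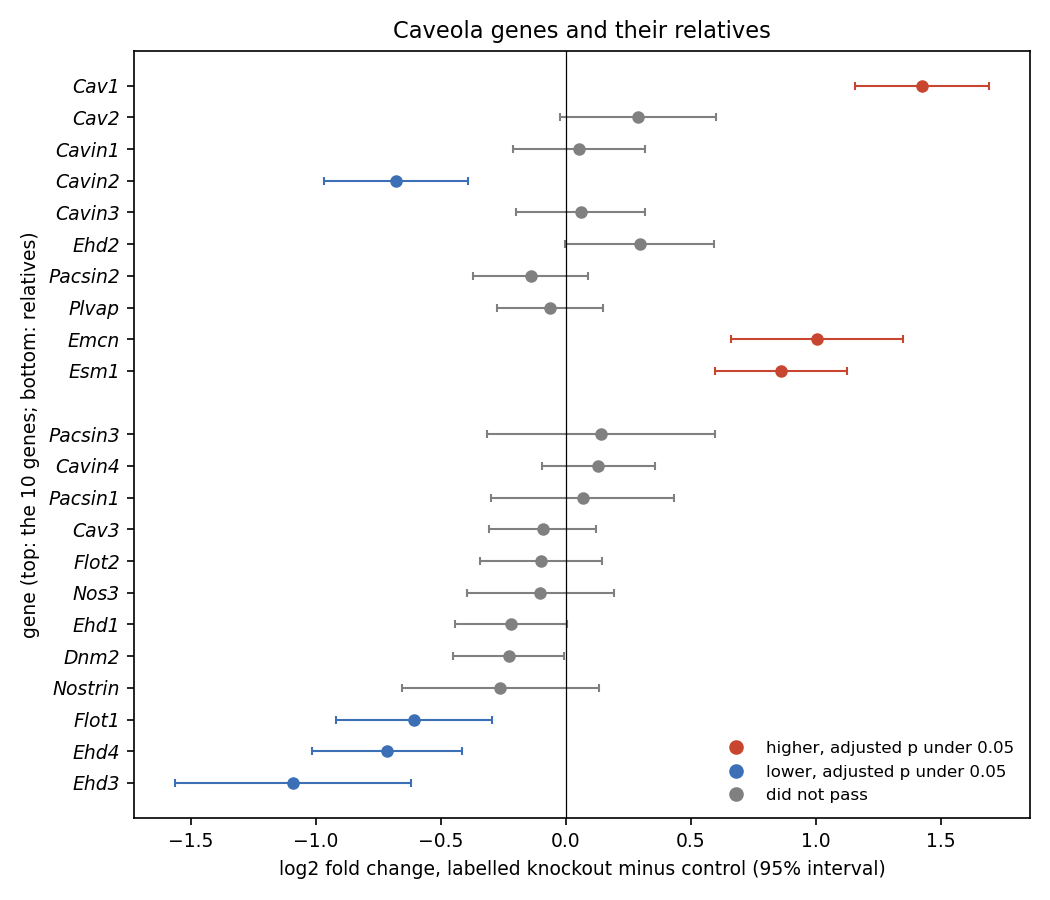
Log2 fold change, labelled knockout minus control, with its 95% interval from the limma fit (horizontal axis) for the 10 genes (top) and 12 relatives and partners (bottom); red is higher and blue lower at an adjusted p under 0.05, and grey did not pass. Cav1 at 1.43 lies apart from Cav2, Cavin1, Cavin3 and Ehd2, and the lowest value is that of Ehd3 at -1.09.

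Among the genes of the capillary surface, Emcn rose and Plvap did not. Emcn read 8.20, 7.90 and 8.03 in control livers and 8.98, 8.81 and 9.34 in livers labelled knockout. The groups were 0.61 log2 units apart, and labelled knockout replicate 3 was the highest. Emcn rose 2.005-fold (log2 fold change 1.00, SE 0.15, limma adjusted p = 0.0151). Leaving out control replicate 2 (0.93, adjusted p = 0.0522) or control replicate 3 (1.00, adjusted p = 0.0699) ended the call, while against control replicate 2 alone the difference was 1.15.

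Plvap read 8.08, 8.07 and 7.97 in control livers and 8.06, 7.98 and 7.89 in livers labelled knockout. All 6 arrays lay within a narrow band, and the log2 fold change was -0.06 (SE 0.09, adjusted p = 0.766; -0.10 against control replicate 2 alone). The 95% interval of -0.28 to 0.15 leaves out a rise of the size seen for Emcn or Cav1.

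Esm1 was the dimmest of the 10, at 4.42, 4.63 and 4.75 in control livers and 5.38, 5.58 and 5.42 in livers labelled knockout. The groups were 0.63 log2 units apart. Esm1 rose 1.82-fold (log2 fold change 0.86, SE 0.11, limma adjusted p = 0.0122), and leaving out control replicate 3 ended the call (0.93, adjusted p = 0.0536). Against control replicate 2 alone the difference was 0.83. Its mean lay at the 45.5th percentile of all genes. How far that is above background is unknown, since no detection value was used.

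Tip cells lead sprouting vessels, and Esm1 belongs to their expressed genes. Of 14 other tip cell genes, 6 rose and 8 did not pass, with a median log2 fold change of 0.41. Over all genes 3.59% passed as higher. Shared endothelial markers had a similar median, 0.35, as had stellate and mesenchymal markers, 0.45. Some genes, Apln among them, are on more than 1 of the lists used here. The Tie2 ligand Angpt2 rose by 0.72 (SE 0.11, adjusted p = 0.0161), the netrin receptor gene Unc5b by 0.69 (adjusted p = 0.0190), adrenomedullin Adm by 0.86 (adjusted p = 0.0272) and Lxn, a carboxypeptidase inhibitor, by 0.57 (adjusted p = 0.0161). Apln and Col4a1 completed the 6. Without 1 array, Angpt2 passed in 4 of 6 fits, Unc5b and Lxn in 3, Adm and Apln in 2 and Col4a1 in 0.

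Emcn is a sialomucin of the glycocalyx, the carbohydrate layer of the vessel surface. Of 12 other glycocalyx genes, 2 rose, 1 fell and 9 did not pass, with a median of 0.19. Over all genes 3.59% passed as higher and 2.77% as lower. The syndecan Sdc4 rose by 0.63 (SE 0.12, adjusted p = 0.0297) and the adhesion molecule Mcam by 0.46 (adjusted p = 0.0351). Srgn, a proteoglycan of blood cell granules, fell by 0.71 (adjusted p = 0.0418). Without 1 array, Sdc4 passed in 2 of 6 fits, Srgn in 1 and Mcam in 0.

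Further genes of continuous capillaries were mixed in direction. Among the 19 genes measured, 4 rose and 2 fell, 13 did not pass, and the median was 0.24. Over all genes 3.59% passed as higher and 2.77% as lower. The homeobox gene Meox2 rose by 1.01 (SE 0.14, adjusted p = 0.0126), the transcription factor gene Tcf15 by 0.86 (SE 0.16, adjusted p = 0.0285), the basement membrane collagen gene Col15a1 by 1.01 (SE 0.13, adjusted p = 0.0106) and the peptide gene Apln by 1.08 (SE 0.22, adjusted p = 0.0315). Rgcc, a gene induced by complement, fell by 1.31 (adjusted p = 0.0141, SE 0.19) and the water channel gene Aqp1, also expressed in red cells, by 1.08 (SE 0.22, adjusted p = 0.0329). Without 1 array, Meox2 and Col15a1 passed in 5 of 6 fits, Rgcc in 4, Apln in 2 and Tcf15 and Aqp1 in 1. Of 11 arterial and endocardial markers, 2 rose, Hey1 (1.08) and Gja4 (0.70), and 1 fell, Nfatc1 (-0.76), with a median of 0.31.

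Markers of the cells that make these genes differed in the same arrays. Of 18 markers shared by all endothelium, 6 rose and 12 did not pass, with a median log2 fold change of 0.35. The median shift from the control mean was 0.32, 0.25 and 0.51 in labelled knockout replicates 1, 2 and 3, and -0.07 to 0.09 in controls. Of 18 sinusoidal markers, 9 fell and 9 did not pass (median -0.44), with Stab2 at -1.30. Of the 18, 4 had a log2 fold change above 0, F8 (0.51) among them, and Stab1 differed by -0.05. Tfec, also expressed in macrophages, is on this list. The part of macrophages in the fall of Tfec or of any other gene of this list was not tested. Stellate and mesenchymal markers, whose cells also make caveolae, rose in 5 of 16 cases (median 0.45), led by the pericyte gene Rgs5 (1.69), and mesothelial markers rose in 3 of 10 (median 0.40). Of macrophage and erythroid markers, 8 of 10 and 4 of 8 fell, with medians of -1.19 and -0.80. Over all genes 3.59% passed as higher and 2.77% as lower.

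Hepatoblast markers did not pass in any of 9 cases in the limma fit (3 at an unadjusted p under 0.05, against 22.5% of all genes), with a median of 0.10. In 4 of the 9 all livers labelled knockout lay above every control, which was so for 13.0% of all genes. Alb and Afp lay at the top of the scale, where quantile normalisation leaves little room for a difference. No heart muscle marker of 8 passed either (1 at an unadjusted p under 0.05). That list was uneven between arrays, with a median shift of 1.32 in control replicate 2 and -1.08 in control replicate 3. The part of heart tissue, mesenchyme or blood cells in the values of the 10 genes was not tested.

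**Figure D3:**
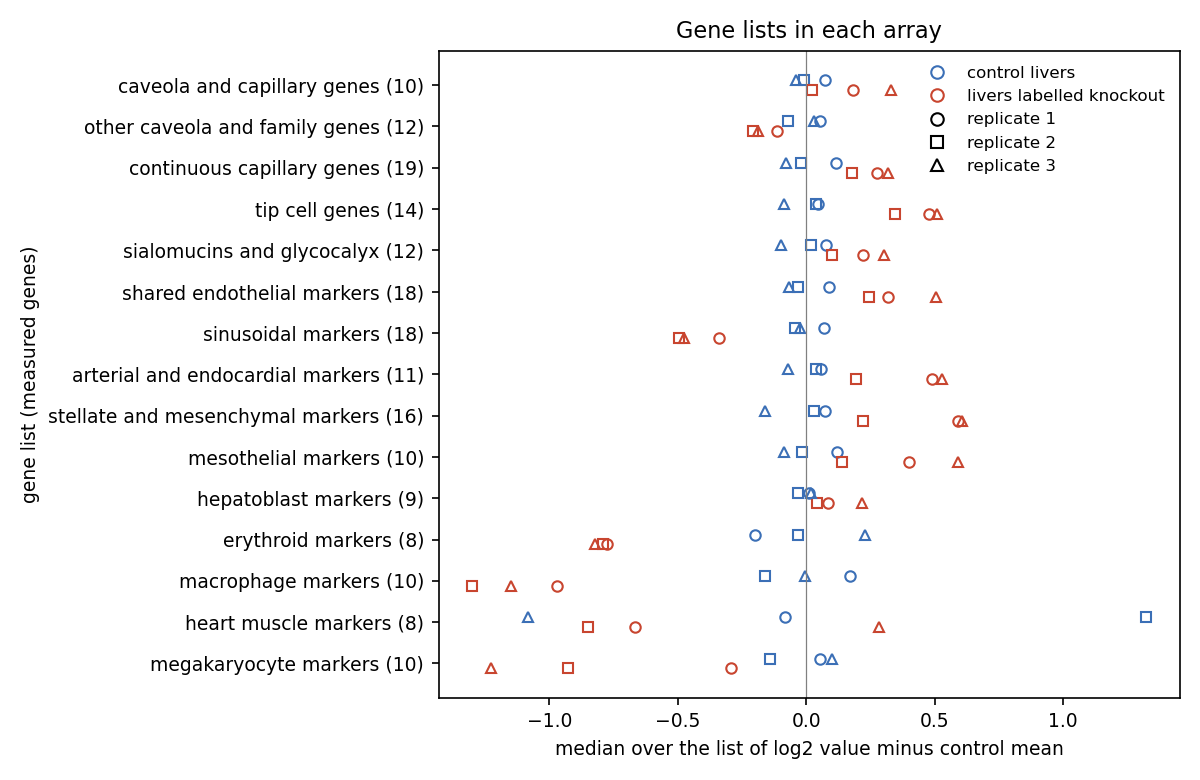
Shift of each gene list, as the median over its genes of log2 value less the mean of controls (horizontal axis), in each array, with the number of measured genes in brackets; blue symbols are control livers, red symbols livers labelled knockout, and shapes give the replicate number. Shared endothelial markers sit at 0.25 to 0.51 in the livers labelled knockout, sinusoidal markers below the controls, and heart muscle markers scatter in both groups.

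Each of the 10 genes was next set against the mean of the shared endothelial markers in its own array. Cav1 was still higher, by 1.10 log2 units, Emcn by 0.68 and Esm1 by 0.53, and their groups did not overlap. On this relative scale Cav1 stood at -1.23, -0.86 and -1.16 in control livers and at 0.08, 0.21 and -0.25 in livers labelled knockout. Cav2 (-0.04) and Ehd2 (-0.03) overlapped between the groups. Relative to these markers Cavin1 (-0.27), Cavin3 (-0.27), Plvap (-0.39), Pacsin2 (-0.47) and Cavin2 (-1.01) were lower in all 3 livers labelled knockout than in any control. The mean of the markers was itself higher in livers labelled knockout (8.41, 8.18 and 8.53) than in controls (8.16, 8.01 and 7.97), which lowers the difference of every gene. The part of blood cells in that mean was not tested. Each non-overlapping difference has an exact two-sided permutation p = 0.1, the smallest that 3 arrays against 3 allow, so none can pass a threshold of 0.05.

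Relative to stellate and mesenchymal markers, the differences were 1.05 for Cav1, 0.62 for Emcn and 0.48 for Esm1, the last with overlapping groups (exact permutation p = 0.2). Relative to sinusoidal markers all genes but Cavin2 were higher without overlap, from 0.37 for Pacsin2 to 1.94 for Cav1. Cavin2 differed by -0.17 relative to the sinusoidal markers and its groups overlapped. The sign for Cav2, Cavin1, Cavin3, Ehd2, Plvap and Pacsin2 thus depends on which marker list serves as the reference.

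**Figure D4:**
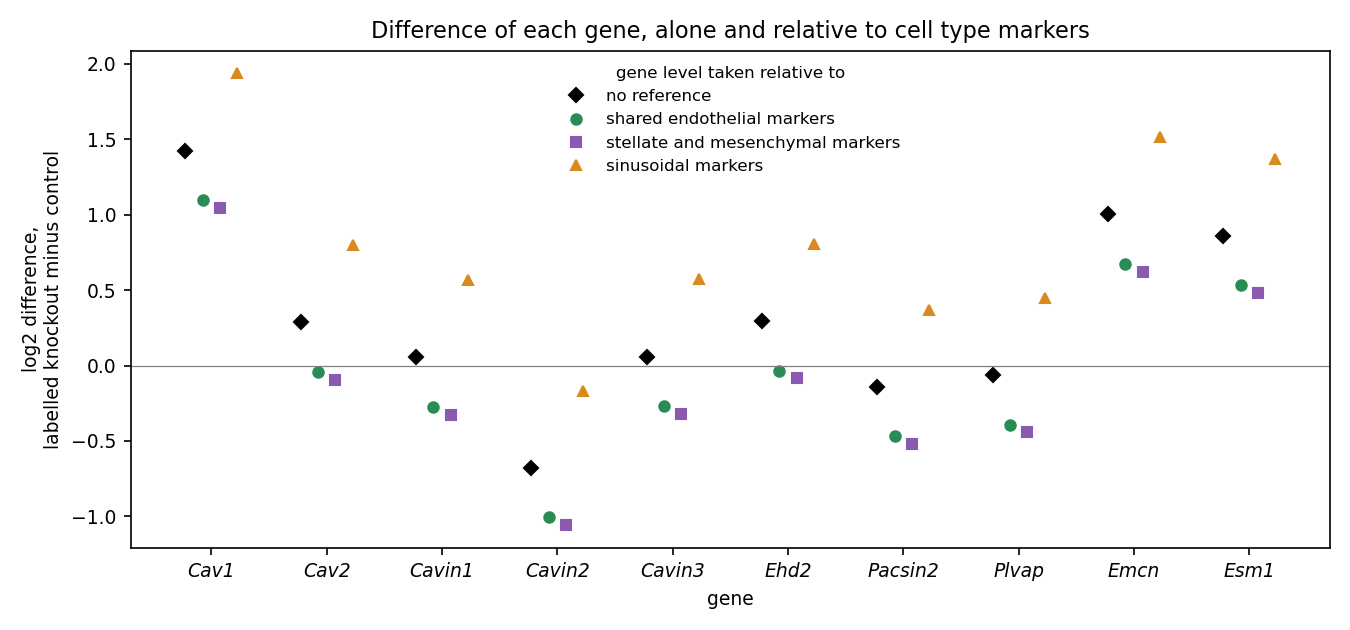
Log2 difference between livers labelled knockout and controls (vertical axis) for the 10 genes (horizontal axis), from the values alone (black) and after subtracting, in each array, the mean of shared endothelial (green), stellate and mesenchymal (purple) or sinusoidal (orange) markers. Cav1, Emcn and Esm1 are above 0 on all 4 scales and Cavin2 is below 0 on all 4, whereas Cav2, Cavin1, Cavin3, Ehd2, Pacsin2 and Plvap change sign between references.

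The named genes whose values over the 6 arrays were most like those of Cav1 were Prrg3, Kdm2a, Prdm6, Carmn and Phf21a, with Pearson correlations of 0.994 to 0.998. These correlations describe 6 arrays that share 2 groups and are mostly the difference between the groups. Prrg3, a vitamin K-dependent membrane protein, rose by 0.96, Phf21a by 0.78, the smooth muscle RNA Carmn by 0.75, the smooth muscle transcription factor gene Prdm6 by 0.68 and the histone demethylase gene Kdm2a by 0.49. Of the stellate and mesenchymal list, Tagln (-0.44), Acta2 (-0.22), Cnn1 (-0.22) and Des (0.005) did not pass. For Tagln all 3 livers labelled knockout lay below every control, which was so for 14.3% of all genes. Cnn1 was uneven, at 6.96 in control replicate 2 and 6.90 in labelled knockout replicate 3, and from 4.38 to 5.50 in the other arrays. The part of heart tissue in these values was not tested.

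With a term for high Xist none of the 10 genes passed in the limma fit, with adjusted p-values of 0.114 for Cav1, 0.154 for Emcn, 0.169 for Esm1 and 0.236 for Cavin2. At an unadjusted p under 0.05, 3 were higher and 1 lower in that fit, against 7.04% and 6.95% of all genes. By its construction the effect then rests on control replicate 2 alone, and over all genes 3 passed. Of the 58 genes of the other lists that passed with all arrays, 47, 44 and 20 passed without labelled knockout replicates 1, 2 and 3, and 31, 23 and 5 without control replicates 1, 2 and 3. The 5 that passed in every such fit were Gpr182, Mrc1, Marco, Rgs5 and Tal1. With the Xist term Rgs5 alone of the 58 passed (adjusted p = 0.0484).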

How the data were processed

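Total RNA of fetal liver was hybridised to 6 Affymetrix arrays. Per the submitters' processing notes, the authors used RMA to make the deposited log2 values; RMA corrects background, quantile-normalises and summarises each feature. No source used here names its version or the chip definition. Once sorted, the 6 arrays hold identical values, which hides any shift of most genes; the number of arrays limits precision. The platform annotation and RefSeq symbols of GRCm38.p6 named 23281 of 24479 features and left 1198 unnamed; for 2 genes with several features the brighter was kept, leaving 23279 genes. Sample-less value columns numbered 0.

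The test was limma's lmFit and eBayes (limma 3.58.1, R 4.3.3), labelled knockout minus control, with no covariate or filter and Benjamini-Hochberg adjustment over all genes; intervals are 95%. The code was tested on simulated data. Differences within arrays used an exact permutation test. Named genes are the 10, genes of the list of relatives, up to 4 of each other list by smallest p, label checks, and the 5 genes most correlated with Cav1, passing over predicted genes and Riken clones. Cav3, Nos3, Apln, Aqp1, Col4a1, Stab1, F8, Tagln, Acta2, Cnn1, Des, the platelet genes and the neighbours of Cav1 were named after their values were seen. The 10 genes and the lists were chosen with earlier results of these data known; 175 of 181 list entries were measured. Alternatives covered the variance model, centring, dim genes, feature averaging, array weights, the replicate block, an Xist term, thresholds and leaving out each array.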

Additional observations from a re-analysis of the deposited data

How the results depend on the processing

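The 3 genes called higher and 1 called lower, and their directions, were the same with robust eBayes, a variance trend, quantile normalisation repeated, arrays centred on the median or trimmed mean, the dimmest 25% left out, averaged features and array weights. With the dimmest 50% left out Esm1 was not tested. The centrings moved the median of all genes by less than 0.01. Leaving out 1 array gave 1 to 3 higher, 0 to 1 lower and 41 to 1395 genes called in all, against 1480; these fits have fewer arrays. Deviations from group means of same-numbered livers had correlations of -0.05, -0.01 and -0.08. With 3 arrays per group these values cannot tell whether the numbers pair the livers, and the labels do not say. With the replicate block 0 of the 10 passed as lower in limma (1 at an unadjusted p under 0.05, as were 21.3% of all genes in either direction). In that fit Cavin2 was at adjusted p = 0.0549, the 3 higher calls held, and 686 genes passed. With the Xist term 0 passed as higher and 0 as lower (3 and 1 at an unadjusted p under 0.05), and 3 genes in all. An adjusted p of 0.1 called 2700 genes, and a 1.5-fold minimum 926. Signs reversed for Cavin1 (-0.0439 with the Xist term; -0.0513 to 0.110 over the fits without 1 array, reversed without control replicate 3) and Cavin3 (-0.0330 to 0.124, reversed without labelled knockout replicate 3), none past the threshold; the cause was not tested.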
